A study of Mus musculus with 6 samples.

Results

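S100 proteins are small calcium-binding proteins, and 7 of their genes, S100a4, S100a6, S100a8, S100a9, S100a10, S100a11 and S100a13, were followed across the cells of mouse lymph nodes. The genes were taken by symbol from the 32285 genes listed for one cell fraction and the 54752 genes listed for the other, and all 7 were found in both lists. The nodes were inguinal and axillary nodes of C57Bl/6 mice in 3 arms: mice bearing a YUMMER1.7 melanoma, mice bearing a YUMM1.7 melanoma, and tumor-free mice, called naive here. YUMM1.7 is a cultured mouse melanoma line, and YUMMER1.7 is its ultraviolet-mutagenised and more immunogenic derivative. No age, sex, tumor size or time after implantation was given in the labels. Each arm had 1 single-cell 3′ library in each of 2 fractions, made from the pooled nodes of several animals, so differences between arms have no replicate check and no test was made. The enriched fraction was retained with magnetic beads against CD11b and CD11c, surface proteins of myeloid cells. The depleted fraction was labelled as freed of CD45, the surface protein of leukocytes, although its protocol speaks of enriching stroma with CD45 beads. In it, Ptprc, the gene of CD45, had a unique transcript count (UMI) in 64.7% of YUMMER1.7 cells, 86.0% of YUMM1.7 cells and 93.8% of naive cells. The shares of cell classes among all cells of this fraction are therefore not compared between arms.

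The enriched libraries held 78551522 UMIs in the YUMMER1.7 arm, 78305030 in the YUMM1.7 arm and 86471908 in the naive arm, with 6466, 7095 and 9951 cells kept and medians of 10149, 9408 and 6708 UMIs per cell. The depleted libraries held 67709285, 76861915 and 78240566 UMIs in the same order of arms, with 6540, 8301 and 12356 cells and medians of 4901, 4592 and 4150 UMIs. Libraries shared 6 to 49 cell barcodes in any pair, at most 0.43% of a library. Erythroid marker genes stood apart in the depleted naive library, at 310.1 counts per 1000000 UMIs (CPM) against 11.8 in YUMMER1.7 and 6.19 in YUMM1.7. The melanoma marker Mlana had between 3 and 7 UMIs in every library, naive ones included.

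S100 proteins act as pairs that change shape when calcium binds and then dock onto partner proteins inside the cell; some are also released and act as danger signals. S100a8 and S100a9 together form calprotectin, a major cytosolic protein of neutrophils that withholds zinc and manganese from microbes and signals through the receptors Tlr4 and Ager. S100a4 binds non-muscle myosin and is linked to cell motility, S100a6 (calcyclin) binds Cacybp, S100a10 (p11) does not respond to calcium and carries annexin A2 to the cell surface, S100a11 binds annexin A1, and S100a13 takes part in the export of Fgf1 and Il1a.

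All 7 genes lie on chromosome 3 of GRCm38 (mm10). S100a13 spans 90514435 to 90524581 on the plus strand, and S100a4 (90603771 to 90606045), S100a6 (90612882 to 90624181) and S100a8 (90668978 to 90670035) follow it on the same strand. S100a9 lies on the minus strand, at 90692632 to 90695721. S100a11 (93520488 to 93526287) and S100a10 (93555080 to 93564643) form a separate plus-strand group further along. The depleted gene list also holds a pseudogene, S100a11-ps, on chromosome 12 at 73961142 to 73961447, which may share reads with S100a11, so the depleted values of S100a11 are less certain.

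The promoters of S100a8 and S100a9 are shown because these were the members that moved together most closely, with a correlation of log2 levels of 0.996 over 32 class-by-library sums of the enriched fraction and of 0.98 over 31 sums of the depleted fraction. The high end of the enriched sums came from neutrophils, and that of the depleted sums from a few cells of a cluster described below. The sequences are RefSeq windows on GRCm38.p6 from 250 bases before to 50 bases after the annotated start, written 5′ to 3′ on the strand of the gene. The S100a8 window is chr3:90668821-90669120 on the plus strand, and the S100a9 window is chr3:90695672-90695971 on the minus strand. Capitals mark TTNCNNAA, the core of C/EBP-type sites, on either strand, and TATAAA.
S100a8: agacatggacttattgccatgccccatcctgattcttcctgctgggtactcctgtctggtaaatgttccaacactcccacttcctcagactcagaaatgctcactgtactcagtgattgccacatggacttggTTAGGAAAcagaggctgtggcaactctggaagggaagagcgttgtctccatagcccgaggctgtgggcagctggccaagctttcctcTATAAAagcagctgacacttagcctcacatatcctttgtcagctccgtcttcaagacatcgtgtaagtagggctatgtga
S100a9: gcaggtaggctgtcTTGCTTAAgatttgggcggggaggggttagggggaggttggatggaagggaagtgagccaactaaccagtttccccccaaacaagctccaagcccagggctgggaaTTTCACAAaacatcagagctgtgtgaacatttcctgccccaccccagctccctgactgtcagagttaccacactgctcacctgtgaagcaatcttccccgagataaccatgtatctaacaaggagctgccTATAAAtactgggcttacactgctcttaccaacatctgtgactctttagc
TTNCNNAA was found on the minus strand 117 bases before the S100a8 start, and on the plus strand 236 and 130 bases before the S100a9 start. It occurred in 2 of the 6 members with a window, S100a8 and S100a9, and in 40.7% of all 32851 windows. TATAAA was searched on both strands as well and was found in S100a4, S100a8 and S100a9, against 13.6% of all windows. In S100a8 it began 30 bases before the start, and in S100a9 it began at the annotated start itself. The motifs did not overlap each other. These are descriptions of the letters in the windows, not of bound sites.

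Cells were clustered in each fraction without any S100 gene, and clusters were named from marker genes of other families. A class name such as neutrophil therefore stands for neutrophil-like cells by those markers. UMIs were summed over the cells of a class in a library and given as CPM of that sum. A ratio between arms is given as log2 with a 95% interval that covers counting error only. A gene was called higher or lower between arms when it differed at least 1.5-fold with at least 50 UMIs over both libraries; this is a rule of size, not a test. Both tumor arms are set against the same naive library, so their ratios over naive are not independent.

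S100a8 and S100a9 were neutrophil genes in these nodes, and were low in most other cells. Neutrophils of the enriched fraction held 97.3% of the S100a8 UMIs of kept cells in YUMMER1.7, 97.2% in YUMM1.7 and 97.9% in naive nodes. They made up 9.98% (645 cells), 5.86% (416 cells) and 7.78% (774 cells) of the kept cells of these libraries. S100a8 reached 72275 CPM in YUMMER1.7 neutrophils, 40134 CPM in YUMM1.7 neutrophils and 35102 CPM in naive neutrophils. S100a9 was at 96112, 54361 and 47341 CPM in the same order. The YUMMER1.7 library was thus the high one for both genes, with a log2 ratio over naive of 1.04 (1.03 to 1.05) for S100a8 and 1.02 (1.01 to 1.03) for S100a9. Over YUMM1.7 the ratios were 0.85 (0.84 to 0.86) and 0.82 (0.81 to 0.83). The YUMM1.7 library lay much nearer to naive, at 0.19 (0.18 to 0.21) for S100a8 and 0.20 (0.19 to 0.21) for S100a9. The number of S100a8 UMIs per S100a9 UMI in neutrophils was 0.75, 0.74 and 0.74, close together in the 3 arms.

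**Figure D1:**
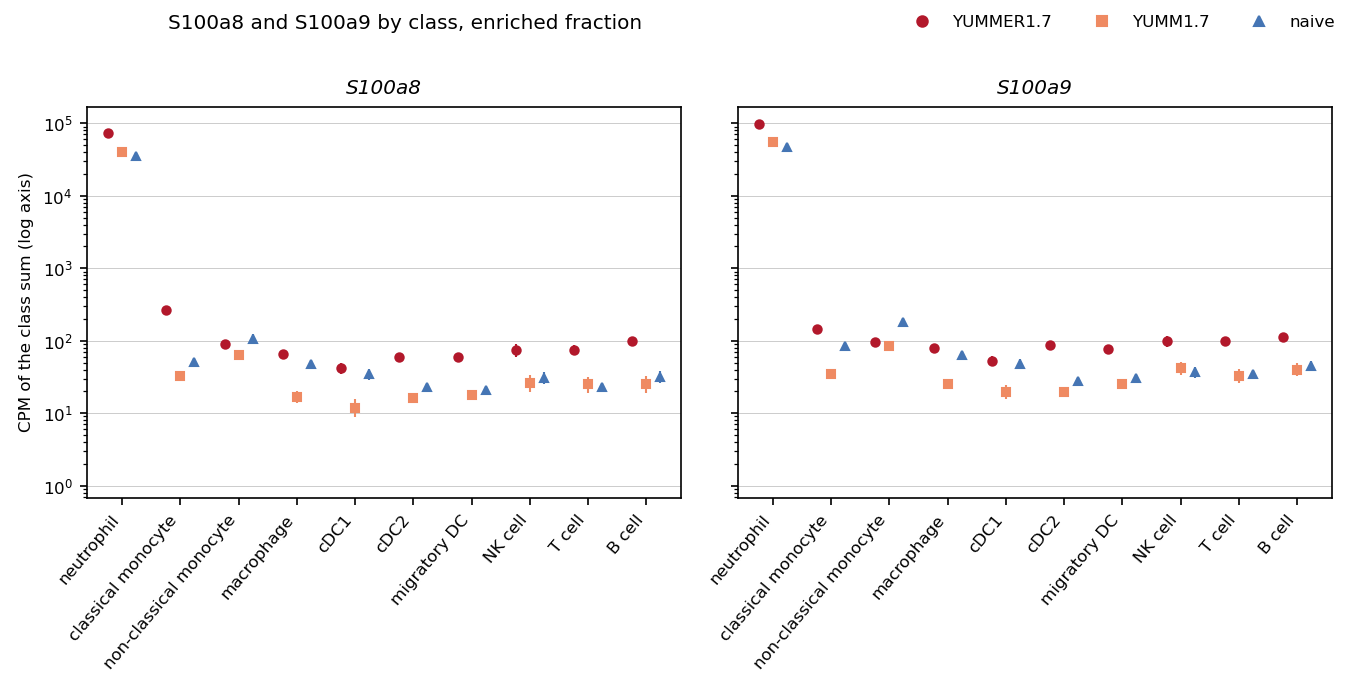
Levels of S100a8 and S100a9 (CPM, log axis) by cell class of the enriched fraction, with 1 point per library (YUMMER1.7, YUMM1.7, naive) and exact Poisson 95% intervals. Neutrophils stand at 35102 to 72275 CPM for S100a8, and the next class, classical monocytes of the YUMMER1.7 library, at 263 CPM.

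The neutrophil class joined a pair of clusters, and the difference between YUMMER1.7 and naive was smaller inside each of them than over the class. Cluster 22 was led by the granule genes Camp, Ngp and Ltf, which neutrophil precursors switch on in the bone marrow. It held 118 of 645 neutrophils (18.3%) in YUMMER1.7, 29 of 416 (6.97%) in YUMM1.7 and 47 of 774 (6.07%) in naive nodes. There S100a8 was at 124077, 114786 and 89379 CPM, and S100a9 at 156089, 141040 and 106948 CPM. In cluster 4, the other neutrophils, S100a8 was at 32378, 20072 and 24962 CPM and S100a9 at 49919, 31067 and 36204 CPM. The log2 ratio of YUMMER1.7 over naive for S100a8 was 0.47 (0.46 to 0.49) in cluster 22 and 0.38 (0.36 to 0.39) in cluster 4, both below the 1.5-fold limit. In YUMM1.7 the clusters went opposite ways against naive, with 0.36 (0.34 to 0.38) in cluster 22 and -0.31 (-0.34 to -0.29) in cluster 4. Both genes together took a median of 28.5% of the UMIs of a cluster 22 cell in YUMMER1.7, 25% in YUMM1.7 and 19.8% in naive nodes. In cluster 4 cells this median was 3.63%, 2.57% and 3.17%. Cluster 22 cells were also deeper, with median UMIs of 12994, 9943 and 9728 per cell against 3395, 2665 and 3020 in cluster 4.

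Over the whole class granule genes were higher in YUMMER1.7 than in naive neutrophils. Of 14 neutrophil granule genes, 14 had enough UMIs, 10 were higher and 0 lower, beside 11.1% of all genes tested that were higher and 16.5% that were lower, with a median log2 ratio of 1.41 beside -0.10 over all genes. Camp, a granule peptide of the cathelicidin family, was at 14249 CPM in YUMMER1.7, 5654 CPM in YUMM1.7 and 5055 CPM in naive neutrophils. Elane, an early granule protease, had 889 UMIs in YUMMER1.7, 31 in YUMM1.7 and 0 in naive neutrophils. Inside the clusters the granule genes did not all go the same way. In cluster 22, 5 of 14 were higher in YUMMER1.7 (Ctsg, Elane, Lcn2, Mpo and Prtn3) and Mmp8 was lower, beside 8.38% of all genes that were higher and 28.7% that were lower. In cluster 4, 2 of 10 were higher (Chil3 and Lcn2) and 3 lower (Camp, Ltf and Lyz2), beside 10.2% and 12.6%. Camp was at 32694 CPM in YUMMER1.7, 26277 CPM in YUMM1.7 and 31320.1 CPM in naive cells of cluster 22, and at 42.9, 112 and 148 CPM in cluster 4. Between YUMM1.7 and naive neutrophils, 0 of 10 measured granule genes were higher or lower over the class, with a median of 0.13. Of all genes, 4.96% were higher in that comparison. Inside cluster 4, 0 of 9 were higher and 3 lower in YUMM1.7 (Lyz2, Mmp8 and Retnlg), beside 7.53% and 10.5% of all genes. Inside cluster 22, 1 of 10 was higher (Retnlg) and 0 lower, beside 5.32% and 21.9%. Of 9 genes of the NADPH oxidase and arachidonate pathway, to which calprotectin is linked in human neutrophils, those reported here as past the limit were Alox5ap, Cyba and Ncf4, which were higher, and Arrb1, which was lower, in YUMMER1.7 than in naive neutrophils, with a list median of 0.50. Beside these calls stand the 11.1% of all genes that were higher and the 16.5% that were lower. None of the 9 was past the limit between YUMM1.7 and naive neutrophils, where the median was 0.22 and 4.96% of all genes were higher. This list was counted over the class only, not inside clusters 22 and 4, whose shares of the class differed between arms.

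Of the members, 3 of 7 were higher in YUMMER1.7 than in naive neutrophils (S100a8, S100a9 and S100a13), beside the same 11.1% of all genes tested, and S100a4 was lower, beside 16.5%. In YUMM1.7, 0 of 7 were higher, beside 4.96%, and S100a10 was lower, at -0.66 (-1.38 to 0.01). That call rests on 24 UMIs in YUMM1.7 and 80 in naive neutrophils. Of all genes, 10.5% in cluster 4 and 21.9% in cluster 22 were lower in YUMM1.7 than in naive cells. S100a6 and S100a11 stayed within the limit. S100a6 was at 4652, 4156 and 3854 CPM in YUMMER1.7, YUMM1.7 and naive neutrophils, a log2 ratio of YUMMER1.7 over naive of 0.27 (0.24 to 0.31). S100a11 was at 3184, 3031 and 3034 CPM, a ratio of 0.07 (0.03 to 0.11). Neutrophils were thus the highest class for 4 members, and among the lowest for S100a4 and S100a10. S100a10 had 18.1, 16.9 and 26.7 CPM there, and S100a4 had 83.6, 187 and 128 CPM. The S100a4 ratio of YUMMER1.7 over naive, -0.61 (-0.83 to -0.39), came with 0.06 (-0.20 to 0.31) inside cluster 4 and turned to 0.21 when cells scored as doublets were kept. It also came within the limit when S100a8 and S100a9 were left out of the CPM denominator.

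S100a8 UMIs outside neutrophils, which free RNA could supply, were present in every enriched library, and their level differed between libraries. A UMI of S100a8 was found in 53.2% of kept YUMMER1.7 cells, 22% of YUMM1.7 cells and 23% of naive cells. B cells, which should lack the gene, had one in 36.0%, 12.7% and 10.5% of cells, at median depths of 4580, 4200 and 3723 UMIs, against 95.2%, 91.3% and 95.2% of neutrophils. After thinning to 2000 UMIs per cell the B cell shares were 17.1%, 6.03% and 4.83%. B cell S100a8 was at 99.0, 25 and 31.8 CPM, and granule genes followed it at 43.9, 12.5 and 18.7 CPM. In cDC1, the lowest class of both tumor libraries, S100a8 was at 42.0 CPM in YUMMER1.7 and 11.9 CPM in YUMM1.7; the lowest naive class was migratory dendritic cells (DCs), at 21.2 CPM. The number of S100a8 UMIs per S100a9 UMI was between 0.68 and 0.88 in B, T and NK cells, macrophages, cDC1, cDC2 and migratory DCs of the YUMMER1.7 library, beside 0.75 in its neutrophils. Levels of this size are treated here as background. No empty droplets were examined, so free RNA, doublets and low expression cannot be told apart in these classes. A higher S100a8 in YUMMER1.7 B cells or DCs is therefore not counted as a difference of those cells.

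Classical monocytes of the YUMMER1.7 library were the exception for S100a8. Classical monocytes had 263 CPM of S100a8 in YUMMER1.7, 32.7 CPM in YUMM1.7 and 50.5 CPM in naive nodes, and 146, 34.3 and 84.5 CPM of S100a9. The YUMMER1.7 library was high and the others did not differ from the background classes by much. The log2 ratio of YUMMER1.7 over naive was 2.38 (2.20 to 2.56) for S100a8 and 0.79 (0.64 to 0.93) for S100a9. Of the members, 3 of 7 were higher in YUMMER1.7 than in naive classical monocytes, S100a8, S100a9 and S100a11, beside 6.49% of all genes tested. In YUMM1.7 the count was 1 of 7, S100a11, beside 3.83%. S100a8 and S100a9 were lower in YUMM1.7 than in naive classical monocytes, 2 of 7 beside 4.87%, at -0.63 (-0.85 to -0.40) and -1.30 (-1.49 to -1.11). The naive values rested on few cells, since 1 cell gave 113 of the 276 naive S100a8 UMIs. Without the 22, 3 and 2 cells with at least 50 UMIs of both genes together, S100a8 was at 138, 24.6 and 26.3 CPM and S100a9 at 81.7, 27.1 and 42.7 CPM. The YUMM1.7 ratio of S100a8 was then -0.10, within the limit, and it was 0.41 (0.02 to 0.82) in cluster 2 alone. B cells of the YUMMER1.7 library had S100a8 at 84.6 CPM and S100a9 at 105 CPM under the same removal. The S100a9 of YUMMER1.7 classical monocytes was thus below that of B cells after this removal, but above that of cDC2, at 72.4 CPM. B cells had a median of 4580 UMIs, against 13491 in classical monocytes and 13494 in cDC2. The removal takes out cells by their own S100a8 and S100a9 UMIs, so it cannot show whether these monocytes express S100a9.

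The S100a8 of YUMMER1.7 monocytes lay mostly in cluster 8, in which 10 markers of classical monocytes stood above the other cells, against 7 in cluster 2. In cluster 8 S100a8 was at 606 CPM in YUMMER1.7, 38.4 CPM in YUMM1.7 and 87.9 CPM in naive cells, and S100a9 at 253, 30.2 and 137 CPM. At least 5 S100a8 UMIs were found in 101 of 419 YUMMER1.7 cells (24.1%, exact binomial interval 20.1 to 28.5%), 4 of 480 YUMM1.7 cells (0.83%) and 4 of 250 naive cells (1.60%). Cluster 2 had 0.68%, 0.72% and 0.31% of such cells, and YUMMER1.7 B cells had 0.32%. Of the 101 cells, 98 had more S100a8 than S100a9. The number of S100a8 UMIs per S100a9 UMI was 2.39 over the YUMMER1.7 cluster, against 0.75 in neutrophils of the same library, 1.27 in the YUMM1.7 cluster and 0.64 in the naive one. Granule genes of the cluster differed from each other. Lcn2, an iron-sequestering protein, was at 116 CPM in YUMMER1.7, 8.25 CPM in YUMM1.7 and 1.7 CPM in naive cells, whereas Camp was at 8.80, 3.82 and 2.97 CPM and Ltf at 2.11, 1.81 and 2.55 CPM. Without the 21, 1 and 2 cells with at least 50 UMIs of both genes together, S100a8 in the cluster was at 277, 26.3 and 31.9 CPM and S100a9 at 93.7, 27.9 and 39.7 CPM. The part of doublets in these values was not tested beyond that removal.

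**Figure D2:**
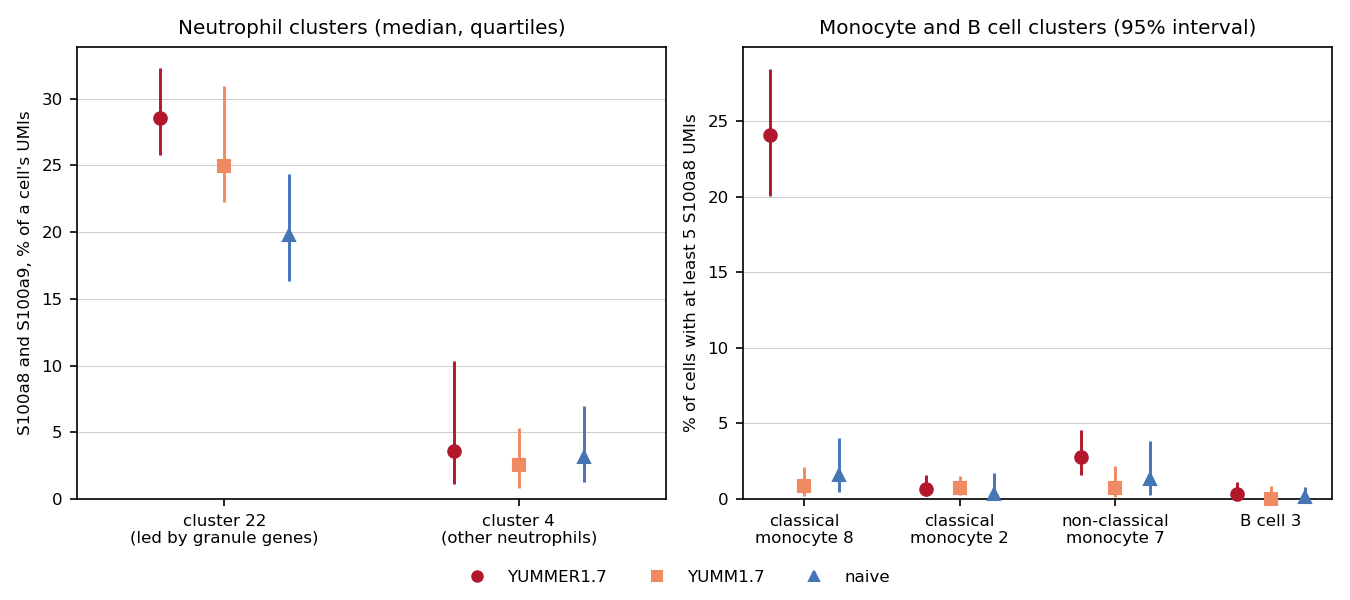
Left, share of a cell's UMIs taken by S100a8 and S100a9 together (percent, median and quartiles over cells) in neutrophil clusters 22 and 4; right, share of cells with at least 5 S100a8 UMIs (percent, exact binomial 95% intervals) in monocyte clusters 8, 2 and 7 and in B cells, all of the enriched fraction with 1 point per library. On the right, cluster 8 of the YUMMER1.7 library stands at 24.1%, and every other point lies at or below 2.80%.

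Non-classical monocytes, the patrolling type, had S100a8 at 89.0 CPM in YUMMER1.7, 63.8 CPM in YUMM1.7 and 107 CPM in naive nodes. Single cells held much of it: 122 of 165 naive UMIs and 94 of 233 YUMM1.7 UMIs came from 1 cell each. S100a9 was at 96.5, 84.3 and 183 CPM. Without the 1, 2 and 1 cells with at least 50 UMIs of both genes, the order of the arms changed: S100a8 was at 86.8 CPM in YUMMER1.7, 28.7 CPM in YUMM1.7 and 28.0 CPM in naive cells, and S100a9 at 89.1, 27.1 and 46.9 CPM. B cells of the YUMMER1.7 library, with a median of 4580 UMIs per cell, were at 84.6 and 105 CPM under the same removal. Its cDC2 were at 52.7 and 72.4 CPM, and its migratory DCs at 58.8 and 76.3 CPM. Their median depths, 13494 and 11739 UMIs, were nearer to the 11554 of non-classical monocytes. At least 5 S100a8 UMIs were found in 15 of 535 YUMMER1.7 non-classical monocytes (2.80%), against 0.32% of B cells. Of these 15 cells, 11 had more S100a8 than S100a9. Whether these levels are background was not tested. In an unnamed cluster led by histone genes and Top2a (cluster 15), 227 of 414 YUMMER1.7 UMIs of S100a8 likewise came from 1 cell.

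In the depleted fraction no neutrophil class was found, and most S100a8 and S100a9 UMIs lay in a few cells. They fell in a cluster led by Lyz2 and by Prtn3 and Ctsg, genes of granulocyte precursors, which is called the Lyz2 Prtn3 cluster here. It had S100a8 at 4656 CPM in YUMMER1.7 (76 cells), 601 CPM in YUMM1.7 (156 cells) and 1175 CPM in naive nodes (107 cells). A single cell supplied 6285 of 8724 UMIs in YUMMER1.7, 608 of 1346 in YUMM1.7 and 1724 of 1769 in naive nodes. Without the 5, 4 and 2 cells with at least 50 UMIs of both genes, S100a8 was at 38.8, 25.2 and 7.44 CPM and S100a9 at 25.7, 11.7 and 22.3 CPM. The arms cannot be ranked on so few cells. In the other named classes of at least 20 cells S100a8 was at or below 14.2 CPM. In naive lymphatic endothelial cells (21 cells) both genes had no UMI, which allows up to 10.7 CPM each.

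In the enriched fraction of both tumor arms S100a4 was highest in cDC2, conventional DCs specialised in priming CD4 T cells. These had 3791 CPM in YUMMER1.7, 3359.9 CPM in YUMM1.7 and 1978 CPM in naive nodes. Migratory DCs had 2557, 2818 and 2389 CPM, classical monocytes 2443, 2213 and 1739 CPM, and non-classical monocytes 2337, 2086 and 1221 CPM. cDC1, the cross-presenting DCs, stood at the other end with 59.1, 93.8 and 59.9 CPM, next to B cells with 38.6, 71.0 and 73.0 CPM. The naive library was the lowest of the 3 in cDC2 and in both monocyte classes. In migratory DCs the log2 ratios over naive were 0.10 (0.08 to 0.12) for YUMMER1.7 and 0.24 (0.22 to 0.26) for YUMM1.7. Migratory DCs were also the highest class of the depleted fraction, with 1936, 2153 and 1838 CPM, and plasma cells the lowest, with 3.99, 4.48 and 4.59 CPM.

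S100a4, S100a6 and S100a11 were all higher in cDC2 of both tumor libraries. Beside S100a4, S100a6 was at 2158 CPM in YUMMER1.7, 1919.7 CPM in YUMM1.7 and 1224 CPM in naive cDC2, and S100a11 at 2072, 1668 and 777 CPM. Both tumor libraries lay above naive for each gene. The log2 ratios of YUMMER1.7 over naive were 0.94 (0.92 to 0.96) for S100a4, 0.82 (0.79 to 0.85) for S100a6 and 1.41 (1.38 to 1.45) for S100a11. Those of YUMM1.7 over naive were 0.76 (0.74 to 0.79), 0.65 (0.62 to 0.68) and 1.10 (1.07 to 1.13). With S100a8 and S100a9, 5 of 7 members were past the limit in YUMMER1.7 over naive cDC2, beside 9.98% of all genes tested. Levels of those genes are treated as background there and are not counted as differences of cDC2. The median ratio of all 7 members, both included, was 0.94 beside 0.02. In YUMM1.7 the 3 named genes were higher, 3 of 7, beside 6.09%. The cDC2 class joined cluster 0, with 94.4% of its YUMMER1.7, 92.2% of its YUMM1.7 and 73.3% of its naive cells, and cluster 17 with the rest. S100a11 was at 2171, 1776 and 952 CPM in cluster 0, a ratio of YUMMER1.7 over naive of 1.19 (1.15 to 1.23), and at 645, 611 and 396 CPM in cluster 17, a ratio of 0.70 (0.54 to 0.86). S100a4 and S100a6 stayed past the limit in cluster 0, at 0.82 (0.80 to 0.85) and 0.74 (0.71 to 0.77), but not in cluster 17, at 0.53 (0.44 to 0.62) and 0.30 (0.19 to 0.41). The partner genes did not follow the members in cDC2: of 15 measured receptors and binding partners, Anxa11 and Sgta were higher and Ahnak, Cd33, Cd36 and Plat lower in YUMMER1.7 than in naive cells, beside 9.98% of all genes that were higher and 10.8% that were lower. Ahnak, a large scaffold that binds S100a10 and annexin A2, was at 71.6 CPM in YUMMER1.7, 111 CPM in YUMM1.7 and 227 CPM in naive cDC2.

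S100a11 was also higher than naive in monocytes and cDC1 of the tumor arms in the enriched fraction. Classical monocytes had 1103 CPM in YUMMER1.7, 622 CPM in YUMM1.7 and 413 CPM in naive nodes. The ratios over naive were 1.42 (1.35 to 1.48) for YUMMER1.7 and 0.59 (0.52 to 0.66) for YUMM1.7. Cluster 8 and cluster 2 gave similar ratios of YUMMER1.7 over naive, 1.53 (1.45 to 1.62) and 1.42 (1.32 to 1.52). Non-classical monocytes had 796, 479 and 299.8 CPM, and cDC1 1159.5, 936 and 572 CPM, so that the naive library was again the lowest. In the Lyz2 Prtn3 cluster of the depleted fraction it was not, with 632, 767 and 843 CPM and ratios over naive of -0.42 (-0.53 to -0.30) and -0.14 (-0.24 to -0.03). The cDC1 ratios were 1.02 (0.94 to 1.10) for YUMMER1.7 and 0.71 (0.64 to 0.78) for YUMM1.7. Migratory DCs were nearer to each other, with 1229, 1218 and 942 CPM and ratios of 0.38 (0.35 to 0.42) and 0.37 (0.34 to 0.40). There, 2 of 7 members were higher in YUMMER1.7 than in naive cells, beside 7.76%, namely S100a8 and S100a9, whose levels are treated as background. In YUMM1.7 the count was 0 of 7, beside 4.63%. Migratory DCs changed clusters between arms, with most YUMMER1.7 cells (63.3%) in cluster 5 and most naive cells (68.9%) in cluster 1, and S100a4 in cluster 5 was at 2573 CPM in YUMMER1.7, 3062 CPM in YUMM1.7 and 3107 CPM in naive cells.

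In non-classical monocytes 4 of 7 members were higher in each tumor arm than in naive nodes, S100a4, S100a6, S100a10 and S100a11, beside 9.61% of all genes tested for YUMMER1.7 and 6.61% for YUMM1.7. The largest ratio in YUMMER1.7 was that of S100a10, at 201 CPM in YUMMER1.7, 155 CPM in YUMM1.7 and 71.7 CPM in naive cells, or 1.49 (1.21 to 1.78) and 1.12 (0.82 to 1.42) over naive. S100a4 gave 0.94 (0.87 to 1.01) and 0.77 (0.70 to 0.85), and S100a6, at 1824, 1541 and 1019.6 CPM, gave 0.84 (0.76 to 0.92) and 0.60 (0.51 to 0.68). S100a11 gave 1.41 (1.27 to 1.55) and 0.68 (0.53 to 0.83); the YUMM1.7 ratio turned to -0.34 when cells scored as doublets were kept. S100a9 was lower than naive in YUMMER1.7, 1 of 7 members beside 11.4%, and S100a8 and S100a9 were lower in YUMM1.7, 2 of 7 beside 6.41%. These calls rested on single cells. Without the cells with at least 50 UMIs of both genes, the S100a9 ratio of YUMMER1.7 over naive was 0.93 in place of -0.92 (-1.13 to -0.71), and the S100a8 ratio of YUMM1.7 over naive was 0.04 in place of -0.74 (-1.04 to -0.45). In macrophage cluster 13, which expressed Mertk and complement C1q genes, S100a10 was at 222, 169 and 53.8 CPM and S100a11 at 295, 186 and 97.2 CPM in YUMMER1.7, YUMM1.7 and naive cells. Most naive macrophages (74.2%) belonged to another cluster, cluster 11, so ratios of the whole class set different clusters side by side.

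**Figure D3:**
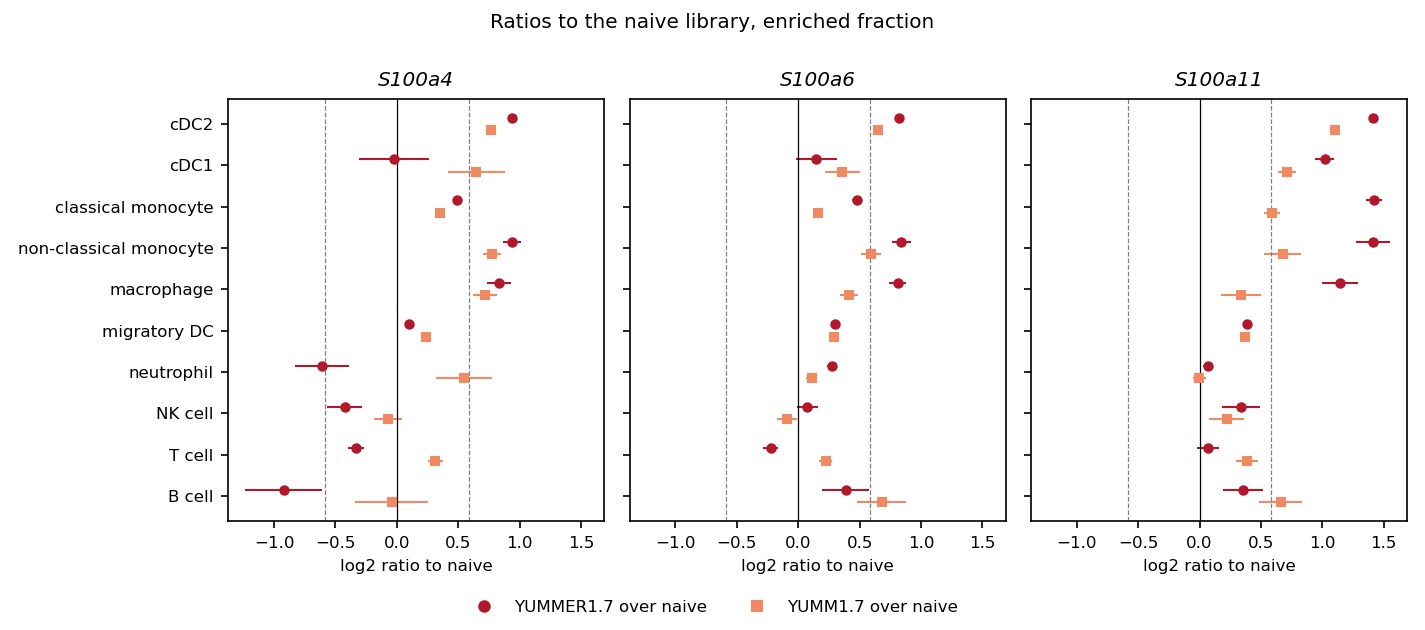
Log2 ratios over naive (points, with exact 95% intervals of counting error) of S100a4, S100a6 and S100a11 in 10 classes of the enriched fraction, for YUMMER1.7 and for YUMM1.7, with dashed lines at a fold of 1.5 either way. In cDC2, S100a11 stands at 1.41 and 1.10, S100a4 at 0.94 and 0.76 and S100a6 at 0.82 and 0.65, whereas all ratios of migratory DCs lie inside the dashed lines.

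S100a6 was present in myeloid and lymphoid cells alike. Classical monocytes had 2321 CPM in YUMMER1.7, 1865 CPM in YUMM1.7 and 1670.3 CPM in naive nodes, ratios over naive of 0.47 (0.44 to 0.51) and 0.16 (0.12 to 0.19). NK cells had 1087, 969 and 1032 CPM and T cells 1004, 1369 and 1172 CPM, at the level of migratory DCs (1042, 1039.7 and 847 CPM). B cells were again low, with 160.0, 196 and 123 CPM. In the T cells of this fraction S100a4 followed the mix of clusters. It was at 1754, 1702 and 1647 CPM in cluster 9, led by Cxcr6, Il23r and Zbtb16, and at 123, 92.7 and 76.1 CPM in cluster 12, led by Lef1, Themis and Cd8b1. Cluster 12 held 53.0% of T cells in YUMMER1.7, and cluster 9 held 55.3% in YUMM1.7 and 45.8% in naive nodes; the class values were 746, 1169 and 941 CPM.

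Among the classes of the enriched fraction, S100a10 was highest in NK cells and T cells. NK cells had 914 CPM in YUMMER1.7, 826 CPM in YUMM1.7 and 705 CPM in naive nodes, with ratios over naive of 0.37 (0.27 to 0.47) and 0.23 (0.14 to 0.32). T cells had 735, 833 and 627 CPM, and B cells 246, 300.1 and 205 CPM. cDC1 were low, with 34.2, 41.2 and 75.6 CPM, and here the naive library was the highest: the ratios over naive were -1.14 (-1.48 to -0.82) for YUMMER1.7 and -0.88 (-1.15 to -0.60) for YUMM1.7. Within classical monocytes S100a10 separated the clusters, with 950.3, 651 and 635 CPM in cluster 8 and 133, 104 and 104 CPM in cluster 2.

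**Figure D4:**
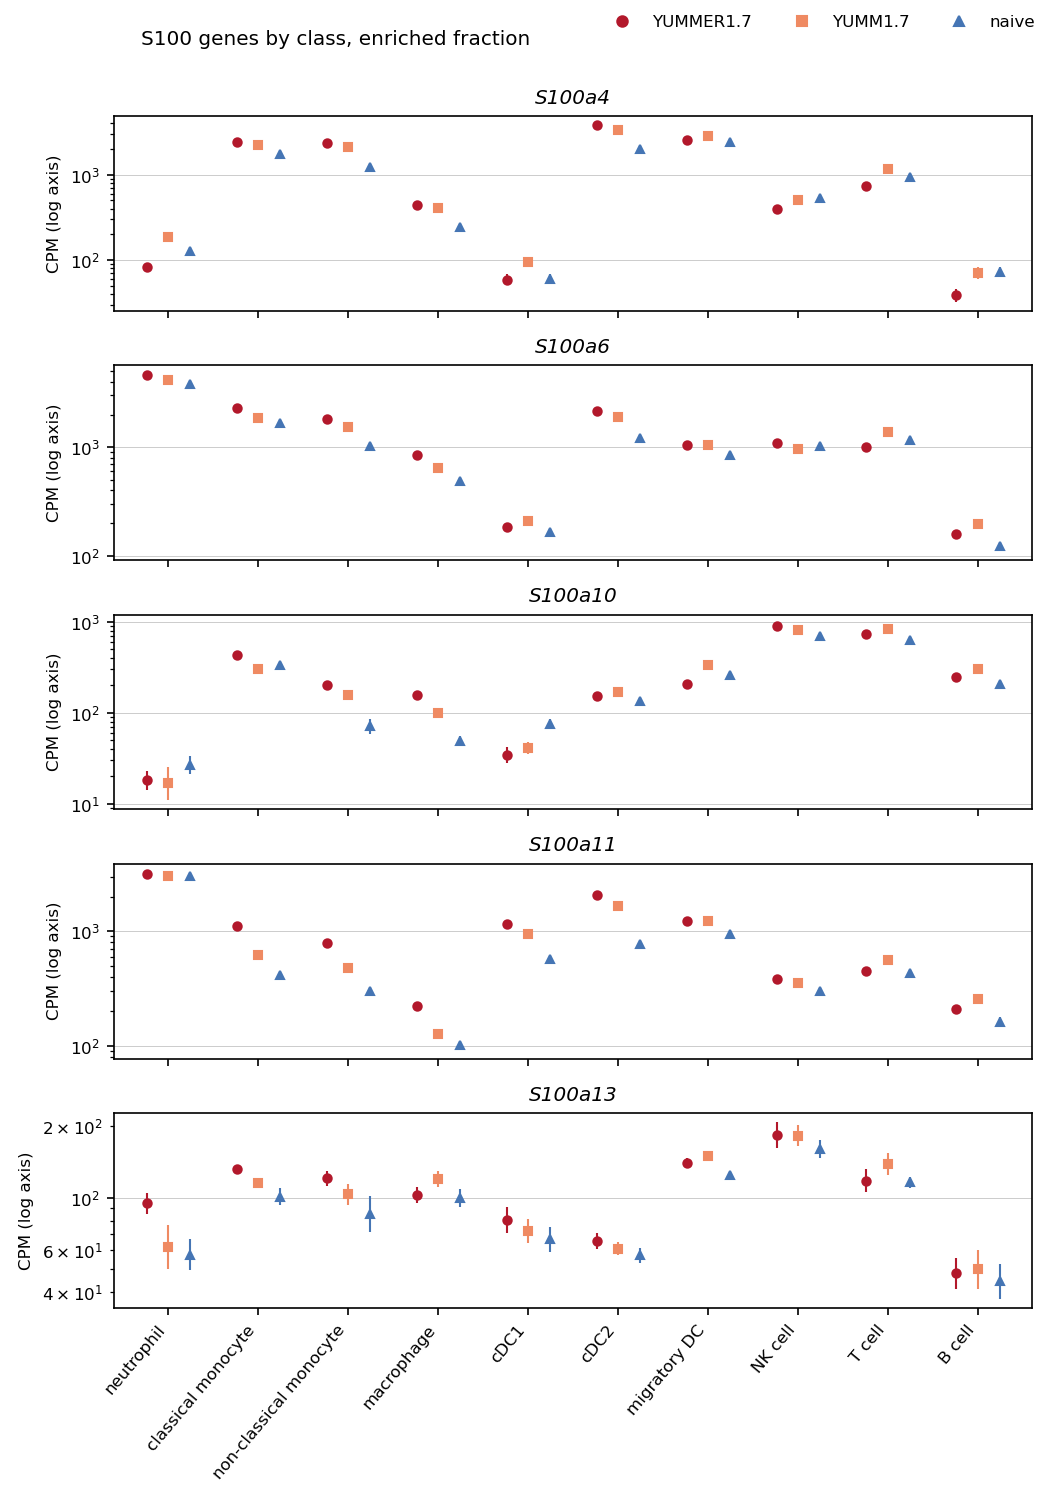
Levels (CPM, log axis, exact Poisson 95% intervals) of S100a4, S100a6, S100a10, S100a11 and S100a13 by class of the enriched fraction, with 1 point per library. S100a4 spans 59.1 CPM in cDC1 to 3791 CPM in cDC2 in YUMMER1.7 DCs, whereas S100a13 stays between 44.4 and 184 CPM in all classes shown.

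S100a13 varied least between classes: its highest class of the enriched fraction was 3.84, 3.66 and 3.62 times its lowest in YUMMER1.7, YUMM1.7 and naive nodes. It ran from 48.0, 49.9 and 44.4 CPM in B cells to 184, 183 and 160.4 CPM in NK cells of the enriched YUMMER1.7, YUMM1.7 and naive libraries. Its highest class was blood endothelial cells of the depleted fraction, with 343 CPM in YUMMER1.7 and 274 CPM in YUMM1.7.

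Among T cells of the depleted fraction S100a4, S100a6, S100a10, S100a11 and S100a13 were higher in YUMMER1.7 than in naive nodes, 5 of 5 members with enough UMIs beside 15.1% of all genes tested, with a median ratio of 1.55 beside -0.15. S100a8 and S100a9 had under 50 UMIs over these libraries. S100a6 was at 1649.7 CPM in YUMMER1.7, 941 CPM in YUMM1.7 and 408 CPM in naive T cells, S100a4 at 847, 355 and 216 CPM, S100a10 at 2104, 1154 and 718 CPM, and S100a11 at 445, 280.5 and 218 CPM. The ratios of YUMMER1.7 over naive were 2.02 (1.97 to 2.06), 1.97 (1.91 to 2.03), 1.55 (1.52 to 1.59) and 1.03 (0.96 to 1.10), and that of S100a13 was 0.95 (0.85 to 1.05). In YUMM1.7, 4 of 6 members were higher, beside 3.93%, namely S100a4, S100a6, S100a8 and S100a10. S100a6 led with 1.21 (1.16 to 1.25), and the S100a8 call rests on 67 UMIs in 1091 YUMM1.7 cells, at 8.18 CPM. B cells of that library had 14.2 CPM of S100a8, and the call is not counted as a difference of T cells. T cells there had 67 UMIs of S100a8 and 37 of S100a9, B cells 226 and 204, and the Lyz2 Prtn3 cluster 1346 and 1689. B cell S100a8 was lower in YUMMER1.7, at 7.69 CPM, whereas the Lyz2 Prtn3 cluster was higher there, at 4656 against 601 CPM. The source of the S100a8 UMIs in T and B cells was not tested. In the depleted fraction a UMI of S100a8 was found in 4.82% of kept YUMMER1.7 cells, 5.52% of YUMM1.7 cells and 0.49% of naive cells.

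The makeup of these T cells differed between arms. Cluster 17, led by histone genes and Ikzf2, was 42.3% of 310 T cells in YUMMER1.7, 8.34% of 1091 in YUMM1.7 and 6.79% of 2917 in naive nodes. Cluster 3, led by Lef1, was 47.1%, 76.3% and 77.9%, and cluster 10, led by the regulatory T cell genes Ikzf2, Ctla4 and Il2ra, was 10.6%, 15.4% and 15.4%. The median depth was 10540 UMIs per YUMMER1.7 T cell, against 5747 in YUMM1.7 and 5821 in naive nodes. S100a6 was at 122, 34.5 and 30.6 CPM in cluster 3, at 3291, 1611 and 910.2 CPM in cluster 10, and at 1959, 2470.1 and 1183 CPM in cluster 17. YUMMER1.7 was above naive within each cluster, with ratios of 1.99 (1.7 to 2.28) in cluster 3, 1.85 (1.75 to 1.96) in cluster 10 and 0.73 (0.68 to 0.78) in cluster 17. S100a10 was within the limit in cluster 3, at 0.19 (0.03 to 0.34), and cluster 17, at 0.57 (0.53 to 0.61), and past it in cluster 10, at 1.23 (1.11 to 1.35). For YUMM1.7 over naive, S100a4 in cluster 3 was -0.37 (-0.91 to 0.14) beside 0.71 (0.64 to 0.78) in the class, and S100a10 was -0.03 (-0.12 to 0.06) beside 0.69 (0.65 to 0.72).

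Several annexin genes, whose products bind S100 proteins, were also higher in these T cells. Of 11 measured receptors and binding partners, Ahnak, Anxa1, Anxa2, Anxa6, Bsg and Sgta were higher in YUMMER1.7 than in naive T cells and 0 were lower, beside the 15.1% of all genes that were higher, with a median ratio of 0.76. In cluster 3 alone, 1 of 10 was higher (Anxa2), beside 4.71% of all genes. In cluster 10, 3 of 10 were higher (Ahnak, Anxa2 and Anxa6), beside 8.53%, and 1 was lower (Cd69), beside 21.7%. In cluster 17, 5 of 11 were higher (Ahnak, Anxa1, Anxa2, Anxa6 and Sgta), beside 3.64%. Anxa2, the partner of S100a10, was at 450.0 CPM in YUMMER1.7, 177 CPM in YUMM1.7 and 88.3 CPM in naive T cells. In YUMM1.7, Anxa1 and Anxa2 were higher and 0 were lower, beside 3.93% of all genes that were higher, with a median of 0.10. By cluster, 0 of 10 were higher in cluster 3, beside 2.43%, and 1 of 10 in cluster 10 (Anxa2), beside 3.91%. In cluster 17, 2 of 11 were higher (Anxa1 and Anxa2), beside 3.4%. In each of these clusters 0 were lower. In neutrophils the same list gave 1 of 14 higher (Anxa1) and 5 of 14 lower (Ahnak, Anxa5, Anxa6, Cd33 and Il1a) in YUMMER1.7 than in naive cells, beside 11.1% of all genes higher and 16.5% lower. Inside the neutrophil clusters 0 were higher, and 3 of 10 were lower in cluster 22 (Anxa5, Cd33 and Tlr4) and 5 of 14 in cluster 4 (Ahnak, Anxa5, Cacybp, Cd33 and Il1a), beside the 28.7% and 12.6% given above. Tlr4, a calprotectin receptor, was even over the neutrophil class, at 113, 113 and 116 CPM, and Ager had between 3 and 7 UMIs there in each library. In classical monocytes Cd69 was higher and Ahnak, Cd33 and Cd36 lower of 14 measured, beside 6.49% and 7.96% of all genes.

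Fibroblastic and blood endothelial cells could be compared only between the tumor arms, because the naive library held 8 and 10 of them. Lymphatic endothelial cells, which line the sinuses of the node, were the highest class for S100a11 in the depleted fraction of both tumor arms, with 1786 CPM in YUMMER1.7, 1537 CPM in YUMM1.7 and 424 CPM in naive nodes, where the class had 21 cells. The ratios over naive were 2.07 (1.81 to 2.35) for YUMMER1.7 and 1.86 (1.60 to 2.13) for YUMM1.7. Those of S100a10 were 1.91 (1.51 to 2.34) and 1.80 (1.4 to 2.23), and those of S100a6 were 1.98 (1.34 to 2.72) and 1.92 (1.27 to 2.66). The naive sums were only 119 UMIs of S100a11, 51 of S100a10 and 19 of S100a6. The share of all genes past the limit over naive is not given for this class. The makeup of the class differed as well, since cluster 20 held 60.7% of it in YUMMER1.7, 68.2% in YUMM1.7 and 38.1% (8 cells) in naive nodes. The ratio of YUMMER1.7 over YUMM1.7 was 0.22 (0.17 to 0.26). For S100a6 and S100a10 the clusters of the class lay further apart than the arms. S100a6 was at 493 CPM in YUMMER1.7 and 391 CPM in YUMM1.7 in cluster 20, with Mmrn1 and Stab2, and at 27.3 and 27.1 CPM in cluster 23, with Cxcl9 and Ccl20. S100a10 was at 1162 and 915 CPM in cluster 20, and at 172 and 144 CPM in cluster 23. S100a11 was at 2111 and 1697 CPM in cluster 20 and at 1438 and 1263 CPM in cluster 23.

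Fibroblastic cells were the highest depleted class for S100a6, with 1811 CPM in YUMMER1.7 and 2039 CPM in YUMM1.7, a ratio of -0.17 (-0.21 to -0.13). A smaller cluster carried it: cluster 22, with the matrix genes Mgp, Col1a1 and Clec3b, had 5263 and 5043 CPM, and cluster 13, with the T zone chemokines Ccl19 and Ccl21a, had 977 and 779 CPM. S100a10 was at 1033 and 1391 CPM in cluster 22, and at 392 and 256 CPM in cluster 13. Cluster 22 held 26.1% of fibroblastic cells in YUMMER1.7 and 35.5% in YUMM1.7. S100a4, which is often used as a fibroblast marker, was at 104 CPM in YUMMER1.7 and 68.3 CPM in YUMM1.7 fibroblastic cells, against 1936 and 2153 CPM in migratory DCs of the same libraries. It was the 1 member of 5 past the limit in fibroblastic cells, beside 3.94% of all genes tested, with a ratio of 0.60 (0.41 to 0.79). The ratio was 0.30 (0.08 to 0.52) in cluster 13, which held most of these cells, and 1.49 (1.12 to 1.87) in cluster 22. In lymphatic endothelial cells 1 of 5 was past it as well, beside 3.08%, again S100a4, at 23 CPM in YUMMER1.7 and 9.48 CPM in YUMM1.7. Its ratio of 1.28 (0.75 to 1.84) turned to -1.05 when cells scored as doublets were kept. In blood endothelial cells S100a6 was higher, 1 of 5 beside 5.36%, at 347 and 221 CPM, with a ratio of 0.65 (0.47 to 0.83). S100a4 was lower there, 1 of 5 beside 7.2%, at 13.5 and 28.5 CPM (50 and 42 UMIs), with a ratio of -1.08 (-1.70 to -0.45).

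**Figure D5:**
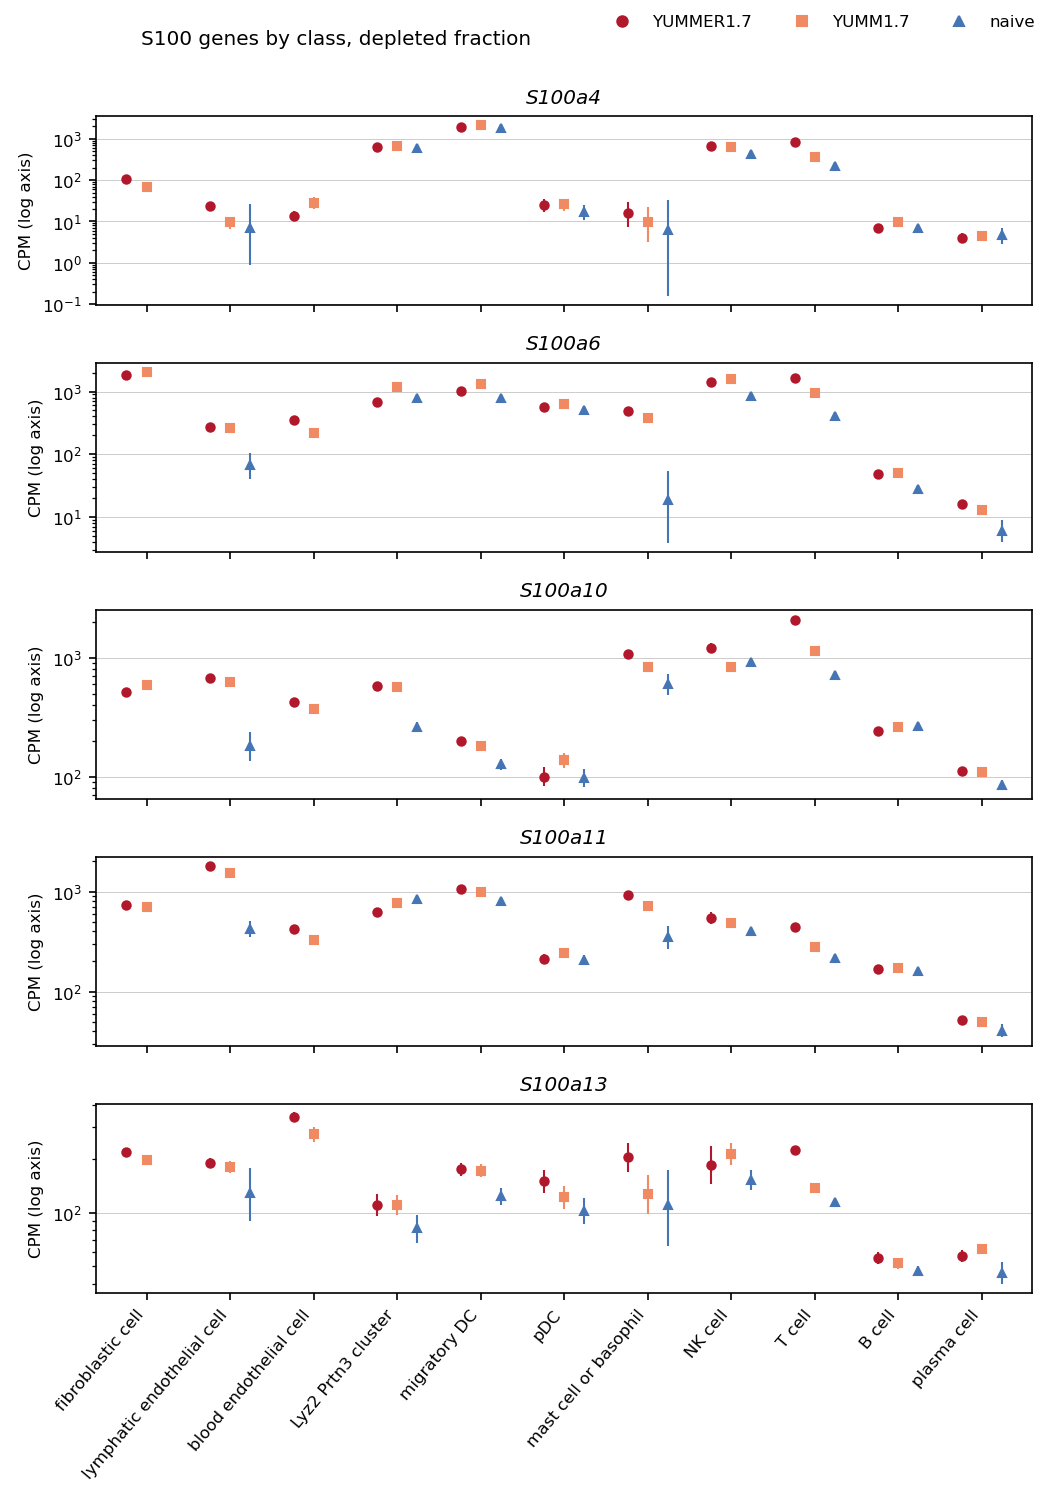
Levels (CPM, log axis, exact Poisson 95% intervals) of S100a4, S100a6, S100a10, S100a11 and S100a13 by class of the depleted fraction, with 1 point per library and classes of under 20 cells left out. S100a11 is highest in lymphatic endothelial cells of the tumor libraries (1786 CPM in YUMMER1.7), S100a6 in fibroblastic cells of both tumor libraries (1811 and 2039 CPM), and S100a10 of T cells reads 2104, 1154 and 718 CPM.

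Among 10 further family members, S100a16 reached 288 CPM in YUMMER1.7 and 284 CPM in YUMM1.7 lymphatic endothelial cells and 224 and 194 CPM in blood endothelial cells. S100a3, at 4.67 CPM in YUMMER1.7 and 3.98 CPM in YUMM1.7 cDC2, was at least 1.5-fold higher than in naive cDC2 in both arms. Of all genes, 9.98% were higher in YUMMER1.7 and 6.09% in YUMM1.7 cDC2, and 10.8% were lower in YUMMER1.7 cDC2. S100a1, the neighbour of S100a13 on the opposite strand, was lower in cDC2.

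The genes most like each member were named by the correlation of log2(CPM + 1) over the class-by-library sums, 32 enriched and 31 depleted ones, from 11 classes each. These points share libraries and depth, and the values are a description. In the enriched fraction S100a8 and S100a9 were closest to Retnlg, a neutrophil resistin-like gene, at 0.98 each, then to Cstdc4 and Lcn2 or Ngp. In the depleted fraction they were closest to Mpo, the myeloperoxidase gene of granulocyte precursors, at 0.96 and 0.95, and to Elane. The high sums there were those of the Lyz2 Prtn3 cluster, where a few cells held most S100a8 UMIs. S100a4 was closest to Tmem176a and Tmem176b, at 0.88 each, S100a6 to Ccrl2 (0.86), S100a10 to Sec11a (0.85), S100a11 to Lyst (0.81) and S100a13 to Sdf4 (0.81). In the depleted fraction the closest genes were Dscam for S100a4 (0.89), Anapc11 for S100a6 (0.87), Esyt1 for S100a10 (0.84), Snx10 for S100a11 (0.90) and Itgb1 for S100a13 (0.87). S100a8 and S100a9 shared their closest gene in each fraction, and none of the other 5 shared its closest gene with another member. Among the members themselves S100a4 and S100a6 correlated at 0.58 over the enriched sums and at 0.77 over the depleted ones, and S100a8 and S100a10 at -0.58 and 0.15.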

How the data were processed

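The authors deposited raw counts of unique transcripts (UMIs) per gene and cell barcode for 6 libraries, counted with Cell Ranger 8.0.1 on mm10 per the submitters' processing notes; per the file headers the enriched matrices carry version 8.0.1 and the depleted ones version 7.0.0. The fractions were therefore kept apart. How multiply matching reads were handled and how cells were called is not given in the sources used here. The members and gene lists were chosen with earlier results of these data known.

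A barcode was kept as a cell from 500 UMIs and 300 genes upwards if mitochondrial genes gave no more than 10% of its UMIs. Scrublet scored doublets in each library. Its automatic threshold marked at most 2.47% of cells, so the cells scoring beyond percentile 95 were discarded instead. Counts were brought to 10000 per cell and put on a log scale, and each fraction was clustered with scanpy 1.11.5 (2000 variable genes, 30 principal components, 15 neighbours, Leiden resolution 1). The clustering used no S100 gene, and no gene of antigen receptors, ribosomes, mitochondria, haemoglobin, provisional gene models or sex-linked transcripts. A class needed at least 3 of its markers in at least 10% of a cluster's cells. In the enriched fraction 1 cluster with germinal centre genes was set back to unnamed, and in the depleted fraction 1 mixed cluster was split by hand at resolution 2, and 1 of its subclusters was set to unnamed and 1 called by its leading genes. Doublets left after this step and free RNA were not corrected for.

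UMIs were summed per class and library. Classes of at least 20 cells are given, and ratios need at least 10 UMIs over both libraries. Poisson, binomial and conditional binomial intervals are exact and cover counting error only; 95% is their level, and a count of 0 allows up to 3 counts. The named genes are the members, the 3 most similar genes per member and fraction among genes with at least 50 CPM in 1 class, of which the text gives a part, and list genes past the 1.5-fold limit. The lists were 10 other S100 genes, 20 receptors and binding partners, 9 NADPH oxidase and arachidonate genes and 14 neutrophil granule genes; none was chosen by the study. A result for 1 list gene is not reported here. No test was made, because each group has 1 library. Library scaling by edgeR 4.0.16 and DESeq2 1.42.0 was used only as an alternative. The count and ratio steps were tested on simulated data. Reference positions came from a GRCm38 annotation and promoter windows from RefSeq (GRCm38.p6).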

Additional observations from a re-analysis of the deposited data

Results flagged for a closer look

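Several ratios of YUMMER1.7 over YUMM1.7 had opposite signs in the same class of the 2 fractions. Each fraction has 1 library per arm, so none of these differences was tested. In B cells the log2 ratio of S100a8 was 1.99 among enriched cells and -0.88 among depleted ones, and that of S100a9 was 1.48 and -0.83. In T cells the ratio of S100a8 was 1.60 among enriched cells and -2.24 among depleted ones, and that of S100a9 was 1.58 and -0.85. In all 4 cases the levels were at or below 112 CPM among enriched cells and 14.2 CPM among depleted ones, near the background level described for S100a8. S100a4 of T cells was well above that range, with a ratio of -0.65 in the enriched fraction, at 746 CPM in YUMMER1.7 and 1169 CPM in YUMM1.7, and of 1.26 in the depleted fraction, at 847 CPM in YUMMER1.7 and 355 CPM in YUMM1.7. The clusters of these T cells also differed: cluster 9 held 30.5% of enriched T cells in YUMMER1.7 and 55.3% in YUMM1.7, and cluster 17 held 42.3% of depleted T cells in YUMMER1.7 and 8.34% in YUMM1.7.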

How the results depend on the processing

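Of 92 member ratios with at least 50 UMIs, 60 were past the 1.5-fold limit. Of these, 58 stayed past it with TMM factors, 58 with DESeq2 size factors, 55 at Leiden resolution 0.5, 56 at resolution 2, 56 with stricter cell filters (1000 UMIs, 500 genes, 5% mitochondrial), 58 with S100 genes kept in the clustering, 59 with S100a8 and S100a9 left out of the CPM denominator, 49 with doublets kept and 47 with cells thinned to 2000 UMIs. With the lowest class subtracted, 57 of 59 stayed, and without cells with at least 50 UMIs of S100a8 and S100a9, 52 of 55. In single clusters fewer stayed: 1 of 5 in neutrophil cluster 22 and 2 of 5 in cluster 4; 6 of 6 in cDC2 cluster 0 and 2 of 6 in cluster 17; 4 of 6 in classical monocyte cluster 2 and 5 of 6 in cluster 8; and 4 of 11 in cluster 3, 4 of 11 in cluster 17 and 8 of 10 in cluster 10 of depleted T cells.

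The neutrophil S100a8 ratio of YUMMER1.7 over naive (1.04) was 1.02 with stricter filters, 1.02 with doublets kept, 1.17 with TMM, 1.16 with DESeq2 factors, 1.18 without both genes in the denominator, 0.80 after thinning, 0.38 in cluster 4 and 0.47 in cluster 22. The classical monocyte S100a8 ratio (2.38) was 2.81 with doublets kept, 2.83 at resolution 0.5, 2.91 with the lowest class subtracted, 1.56 in cluster 2 and 2.78 in cluster 8. The cDC2 S100a11 ratio (1.41) was 1.60 at resolution 2, 1.53 with S100 genes kept, 1.38 with DESeq2 factors, 1.34 after thinning, 1.46 with the lowest class subtracted, 1.19 in cluster 0 and 0.70 in cluster 17. The S100a6 ratio of depleted T cells (2.02) was 1.97 with stricter filters, 2.07 with doublets kept, 2.12 with DESeq2 factors, 2.44 after thinning, 1.85 in cluster 10 and 0.73 in cluster 17. The S100a11 ratio of YUMMER1.7 over YUMM1.7 in lymphatic endothelial cells (0.22) was 0.30 with TMM, 0.30 with DESeq2 factors, 0.086 after thinning and 0.32 in cluster 20. With a fold of 2, 3 members were past the limit in YUMMER1.7 over naive cDC2 instead of 5.

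Of the ratios past the limit, signs turned in 12 cases: with doublets kept, S100a4 of neutrophils (0.21, YUMMER1.7 over naive), S100a11 of non-classical monocytes (-0.34, YUMM1.7 over naive) and S100a4 of lymphatic endothelial cells (-1.05, YUMMER1.7 over YUMM1.7); at resolution 0.5, S100a9 of non-classical monocytes (0.00080, YUMMER1.7 over naive); without cells with at least 50 UMIs, S100a9 (0.93, YUMMER1.7 over naive) and S100a8 (0.037, YUMM1.7 over naive) of non-classical monocytes; in cluster 4, S100a4 of neutrophils (0.056); in cluster 2, S100a8 of classical monocytes (0.41, YUMM1.7 over naive); in cluster 3 of depleted T cells, S100a4 (-0.37) and S100a10 (-0.034), both YUMM1.7 over naive; and in cluster 17 of depleted T cells, S100a8 (0.51) and S100a9 (0.13), both YUMMER1.7 over YUMM1.7. Ratios within the limit turned too: S100a6 of fibroblastic cells was 0.33 in cluster 13 and 0.06 in cluster 22 (-0.17 over the class), and S100a4 of migratory DCs, YUMMER1.7 over naive, was -0.27 in cluster 5 (0.10 over the class). The cause was not tested. Single clusters, the removal of cells with at least 50 UMIs of S100a8 and S100a9, and the hand-named clusters were chosen after seeing the data. No paired analysis was possible because each group has 1 library and no test was made; for the same reason no replicate could be left out. Depth limits S100a8 and S100a9 most in the depleted fraction, where most classes have under 100 UMIs.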
